A study of Mus musculus with 11 samples.

Results

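Oxidative phosphorylation was followed at the RNA level in cultured CD8+ T cells, through the genes of the 4 electron transport complexes, the ATP synthase and the mitochondrial ribosomal RNAs. The members were chosen by symbol from the deposited expression table: rows beginning with mt-, Nduf, Uqcr or Atp5, rows beginning with Cox and a digit from 4 to 8, and Sdha, Sdhb, Sdhc and Sdhd, without the 9 symbols that end in -ps. This gave 110 members among 25562 gene symbols, of which 95 are encoded in the nucleus and 15 in the mitochondrial genome. Of these 15, 13 are protein-coding genes, called messenger RNAs below, and 2 are ribosomal RNAs. No mitochondrial transfer RNA was among the rows.

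Splenic CD8+ T cells of C57BL/6 mice received 1 of 3 treatments and were stimulated for 24 h through CD3 (antibody at 1 µg/mL) and CD28 (antibody at 0.5 µg/mL), after a pretreatment of 22 h. The 4 AOAH libraries received 10 µg/mL of His-tagged recombinant human acyloxyacyl hydrolase, a lipase that removes fatty acyl chains from bacterial lipopolysaccharide, together with the ethanol control. The labels do not give the glycerol content of the AOAH solution, so a buffer difference from vehicle cannot be told apart from the enzyme. The 3 PC libraries received 60 µM PC16:0-20:4, a phosphatidylcholine that carries an arachidonoyl chain, with 10% glycerol PBS as the protein buffer. The 4 vehicle libraries received ethanol and 10% glycerol PBS. All groups therefore hold activated cells, and there was no resting group. The labels place AOAH in the pretreatment in one field and in the stimulation in another, name both plate-bound antibody and beads, and give the medium as with or without interleukin-2. The sources used here do not give age, sex or pooling of the mice. Separate animals or cultures are nowhere stated, and p-values therefore reflect variation among libraries that may be technical only.

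Oxidative phosphorylation passes electrons from NADH through complex I, or from succinate through complex II, to coenzyme Q, then through complex III and cytochrome c to complex IV, which reduces oxygen. Complexes I, III and IV pump protons across the inner mitochondrial membrane, and complex V, the ATP synthase, uses the gradient to make ATP. Complexes I, III, IV and V contain subunits of nuclear and of mitochondrial origin, whereas complex II is wholly nuclear. T cells raise both glycolysis and mitochondrial respiration after activation.

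Levels are given in TPM, an abundance measure corrected for gene length and library size, read from the deposited table. Levels of different genes can therefore be set side by side, though less surely for very short or overlapping genes. Changes are log2 differences of TPM + 1, which understate the change of low genes, from limma with Benjamini-Hochberg adjustment over all tested genes. A gene was called at an adjusted p under 0.05. Depth per library is unknown, because TPM keeps none. In bulk RNA, fewer cells of a type and less RNA per cell cannot be told apart.

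All 110 members together took 5.98% to 6.26% of the TPM of a library, and the 15 mitochondrial rows alone took 3.38% to 3.61%. Averaged over the 11 libraries, the mitochondrial messenger RNA row of highest TPM was mt-Atp8, a small membrane subunit of the ATP synthase, at 6899.7 TPM. The lowest was mt-Nd3, a complex I subunit, at 326 TPM. The gene mt-Atp6, which overlaps mt-Atp8, was listed at 1077 TPM, so the rank of mt-Atp8 need not be one of RNA amount. The mt-Atp8 level rests on a very short gene: in the authors' deposited table for AOAH, whose base mean is not corrected for length, mt-Atp8 had 310.1 and mt-Co1 133869.7. Among nuclear members Atp5b, the catalytic beta subunit of the ATP synthase, was highest at 2161 TPM. The most abundant nuclear member of complex IV was Cox6a1 with 975 TPM, of complex III Uqcrq with 562 TPM, of the complex I accessory subunits Ndufa12 with 418 TPM, of complex II Sdha with 412 TPM and of the complex I core Ndufs8 with 210.4 TPM. The 8 complex I assembly factors, which help to build the enzyme and then leave it, were lower, between 8.63 TPM for Ndufaf3 and 86.6 TPM for Ndufaf2. The median member level was 454 TPM for the nuclear genes of complex V, 148 TPM for complex I accessory subunits and 2049.8 TPM for mitochondrial messenger RNAs.

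**Figure D1:**
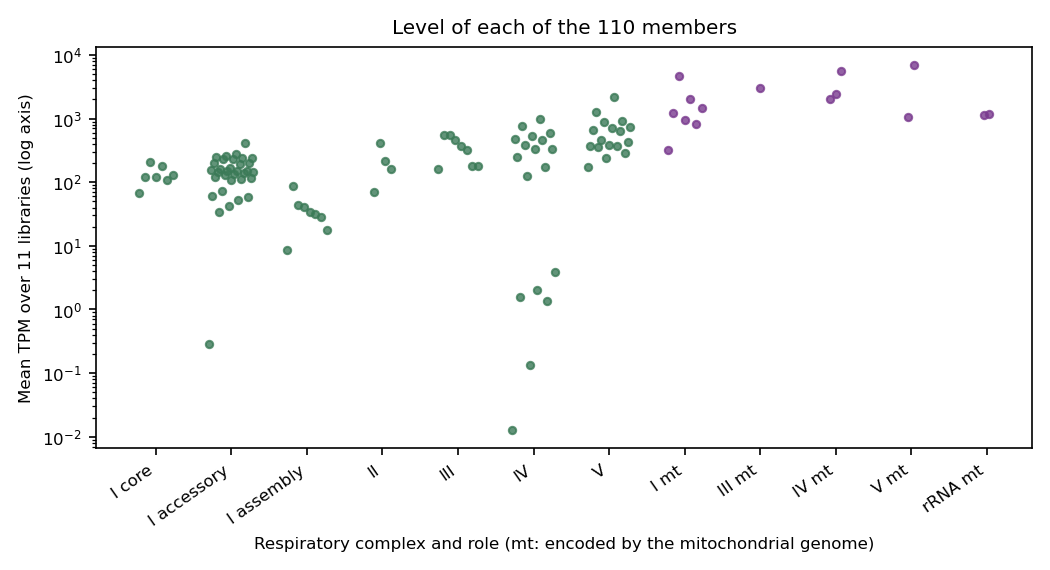
Mean TPM over 11 libraries (log axis) of each of the 110 members, 1 point a member, by complex and role, with genes of the nucleus in green and genes of the mitochondrial genome in purple. The mitochondrial messenger RNAs lie between 326 and 6899.7 TPM, complex I assembly factors between 8.63 and 86.6 TPM, and a few tissue isoforms of complex IV under 5 TPM.

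Of the 110 members, 107 reached a mean of 1 TPM in each comparison and were tested. Cox4i2, Ndufa4l2 and Ndufs6b did not. In AOAH against vehicle, 8 members were called higher and 5 lower, which is 12.1% of those tested. Over all 11561 genes tested, 25.2% were called, 13.1% higher and 12.1% lower. The members' median change was -0.001 against 0.010 for all genes. With batch as a block, 4 of the 8 higher and 4 of the 5 lower calls were kept, and leaving out 1 library gave 5 higher without vehicle 2 or vehicle 3 and 3 lower without AOAH 3, vehicle 2 or vehicle 4. In PC against vehicle 1 to 3, 1 member was called higher and 18 lower, 17.8% of those tested (0 higher without PC 1, PC 3 or vehicle 1, and 2 higher without vehicle 2), against a background of 19.5% of 11628 genes, 8.27% higher and 11.2% lower. The members' median change was -0.051, against -0.009 for all genes, and 79 of 107 had a negative change. In AOAH against PC, 33 members were called higher and 10 lower, 40.2% of those tested, against 45.8% of 11596 genes, 24.3% higher and 21.5% lower, with a median change of 0.083 against 0.003. Under quantile normalization this median was 0.020 against 0.013 for all genes, with 22 members higher and 21 lower.

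**Figure D2:**
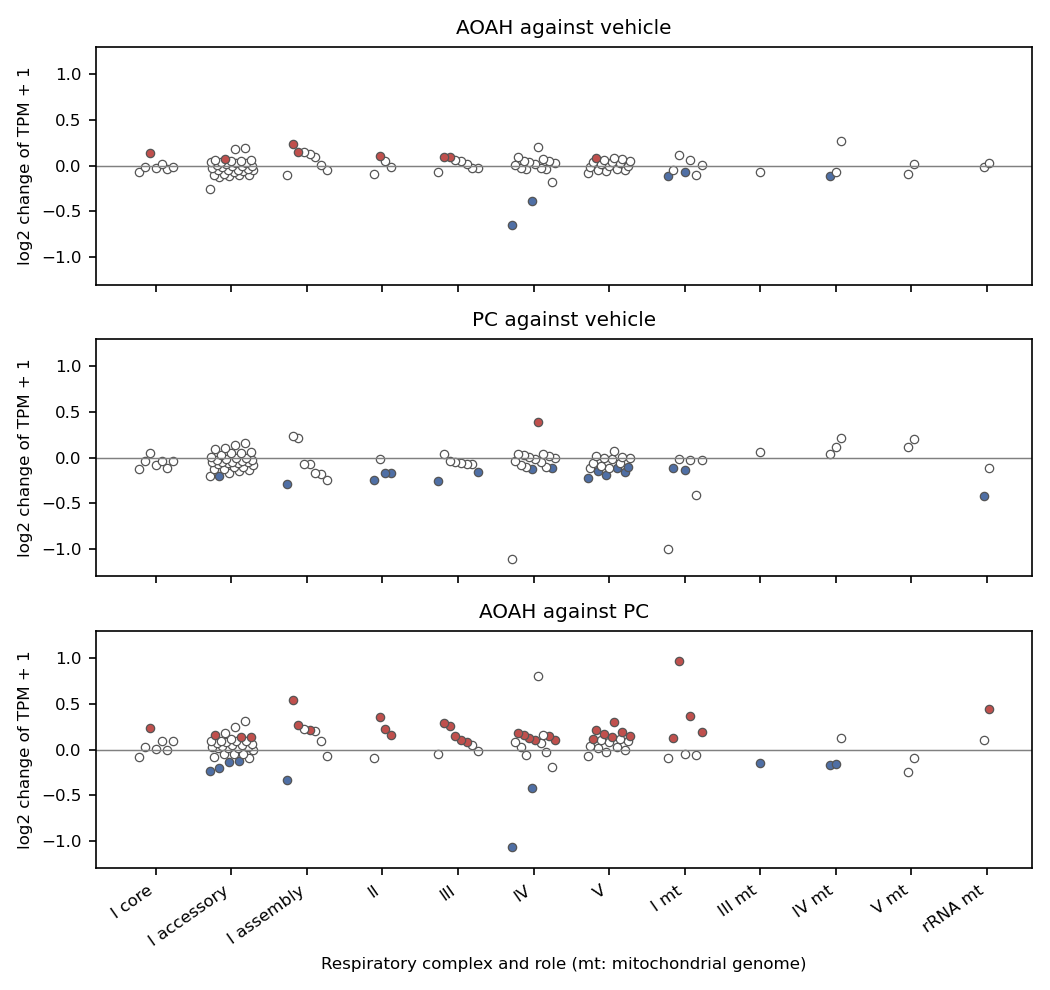
Log2 change of TPM + 1 of each tested member in AOAH against vehicle, PC against vehicle and AOAH against PC, by complex and role. Filled red points were called higher and filled blue points lower at an adjusted p under 0.05, and open points were not called. Calls are few in AOAH against vehicle (8 higher, 5 lower), nearly all negative in PC against vehicle (1 higher, 18 lower) and mostly positive in AOAH against PC (33 higher, 10 lower).

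Promoters of the nuclear members are shown here because factors that bind them are known to set respiratory gene transcription: NRF1, GABP (an ETS factor) and YY1. RefSeq promoter windows (GRCm38.p6, 250 bases before to 50 after the start) were matched for 76 of the 95 nuclear members. The NRF1 core GCGCATGCG, searched on both strands, was present in 13.2% of them and in 1.95% of 27025 genes. The ETS core CCGGAAG was present in 25% and 9.93%, the YY1 core AAGATGGCG in 10.5% and 1.64%, and at least 1 of the 3 in 40.8% and 12.7%. A match describes the letters and is not a binding site. Stretches of 4 members described further on are printed from RefSeq, 5′ to 3′ on the strand of the gene, with a matched core in capitals:
Sdhd (chr9:50603864-50603920, minus strand, 71 to 15 bases before the start, ETS core on the opposite strand): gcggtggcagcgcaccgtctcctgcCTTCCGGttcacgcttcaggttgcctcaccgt
Ndufaf4 (chr4:24897945-24898004, plus strand, 138 to 79 bases before the start, NRF1 core on both strands, 1 base apart): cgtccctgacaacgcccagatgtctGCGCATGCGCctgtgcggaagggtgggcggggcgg
Cox7a2l (chr17:83514334-83514453, minus strand, the 120 bases before the start): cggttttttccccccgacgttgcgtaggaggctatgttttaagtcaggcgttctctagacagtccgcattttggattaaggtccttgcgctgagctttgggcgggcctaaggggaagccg
Ndufaf2 (chr13:108158626-108158745, minus strand, the 120 bases before the start): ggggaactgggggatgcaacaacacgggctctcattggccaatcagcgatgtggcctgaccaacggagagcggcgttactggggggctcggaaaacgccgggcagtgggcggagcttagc
None of the 3 cores was found in the printed Cox7a2l and Ndufaf2 stretches.

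Complex I is the largest of the respiratory enzymes, and few of its nuclear subunits were called. Of 39 tested nuclear core and accessory subunits, 2 were called higher and 0 lower in AOAH against vehicle, and 0 higher and 1 lower in PC against vehicle, where 9 had an unadjusted p under 0.05. These are 5.13% and 2.56% called, against 25.2% and 19.5% of all genes. Their median changes were -0.012 and -0.043. Ndufs1, the largest core subunit and a carrier of iron-sulphur clusters, had 75.1, 75.4, 72.1 and 71.6 TPM in the AOAH libraries, 63.4, 62.3 and 60.6 TPM in the PC libraries and 68.3, 67.2, 66.5 and 64.4 TPM in the vehicle libraries. Every AOAH library lay above every vehicle library, and every PC library lay below. Its change was 0.14 ± 0.03 (SE) in AOAH against vehicle (limma adjusted p = 0.0125) and -0.12 ± 0.03 in PC against vehicle (adjusted p = 0.0586), which was not called. Ndufa12, an accessory subunit, had 417 to 450.1 TPM in AOAH and 406 to 416 TPM in vehicle, a change of 0.08 ± 0.03 (adjusted p = 0.0480). With batch as a block this call was lost (adjusted p = 0.0664), as it was under quantile normalization (adjusted p = 0.244) and without any library but AOAH 3 (adjusted p from 0.0699 to 0.115). Ndufb1, another accessory subunit, was lower in PC than in vehicle 1 to 3, at 53.7, 53.2 and 49.2 against 63.3, 56.4 and 59.9 TPM, a change of -0.20 ± 0.06 (adjusted p = 0.0490, and 0.0729 with the block). Only without vehicle 2 was this call kept when 1 library was left out, the others giving adjusted p from 0.0764 to 0.137.

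Of the 8 complex I assembly factors, 2 were higher and 0 lower in AOAH, and 0 higher and 1 lower in PC, each against vehicle. Ndufaf2, a chaperone of late complex I assembly that is related in sequence to Ndufa12, was one of 4 members called in both comparisons with vehicle. It had 107, 99.7, 98.3 and 99.2 TPM in AOAH, 71.1, 64.1 and 72.1 TPM in PC, and 81.4, 85.3, 86.2 and 87.7 TPM in vehicle. The 3 groups did not overlap, with AOAH highest and PC lowest. Its change was 0.24 ± 0.04 in AOAH against vehicle (adjusted p = 0.00171), -0.29 ± 0.05 in PC against vehicle (adjusted p = 0.0120) and 0.54 ± 0.05 in AOAH against PC (adjusted p = 8.66e-05). Ndufaf4, whose NRF1 core is printed above, had 35, 34.4, 34.5 and 35.4 TPM in AOAH, 30.1, 29.3 and 30.4 TPM in PC and 32.6, 31.1, 31.0 and 30.7 TPM in vehicle. All AOAH libraries were above all vehicle libraries, a change of 0.15 ± 0.03 (adjusted p = 0.0139, and 0.0509 with the block). Ndufaf3, which acts in a complex with Ndufaf4, went the other way in AOAH against PC, at 7.0, 7.65, 8.4 and 7.93 against 10.3, 9.93 and 9.86 TPM, a change of -0.34 ± 0.07 (adjusted p = 0.00454). The summed TPM of the 8 factors averaged 316 ± 7.76 in AOAH, 266 ± 5.95 in PC and 288 ± 5.14 in vehicle (SD; n = 4, 3 and 4), with no overlap between groups.

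Complex II, succinate dehydrogenase, also works in the citric acid cycle, and 3 of its 4 genes were lower in PC than in vehicle. Sdhd, a membrane anchor subunit, had 171, 179, 169.8 and 177 TPM in AOAH, 139.7, 137 and 129.8 TPM in PC and 161, 161, 160.2 and 163 TPM in vehicle. The 3 groups did not overlap, again with AOAH highest. Its change was 0.11 ± 0.02 in AOAH against vehicle (adjusted p = 0.0117), -0.24 ± 0.03 in PC against vehicle (adjusted p = 0.00408) and 0.36 ± 0.03 in AOAH against PC (adjusted p = 1.03e-04). Under quantile normalization the first of these changes was 0.06 and was not called (adjusted p = 0.126). Sdhb, the iron-sulphur subunit, had 216, 220.3, 217 and 216 TPM in AOAH, 197, 190.3 and 198 TPM in PC and 219, 221, 219 and 219 TPM in vehicle. PC stood apart below both other groups, by -0.17 ± 0.03 against vehicle (adjusted p = 0.00624). Sdha, the flavoprotein that oxidizes succinate, had 419, 421, 474 and 427 TPM in AOAH, 356, 378 and 381 TPM in PC and 423, 403, 423 and 423 TPM in vehicle. It fell in PC by 0.16 on the log2 scale (SE 0.03, adjusted p = 0.0194), a call that was lost without vehicle 1 (adjusted p = 0.0691) or without vehicle 3 (adjusted p = 0.0685). Sdhc, the other membrane anchor, was lowest in level of the 4 and had 72.1, 75.9 and 70.5 TPM in PC against 73.5, 75.3 and 71.4 TPM in vehicle 1 to 3, with overlapping groups and a change of -0.01 ± 0.04 (adjusted p = 0.895). The complex II sum was 895 ± 25 TPM in AOAH, 775 ± 8.60 TPM in PC and 872 ± 7.81 TPM in vehicle (SD; n = 4, 3 and 4), and the PC mean was 0.891 times that of vehicle 1 to 3.

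**Figure D3:**
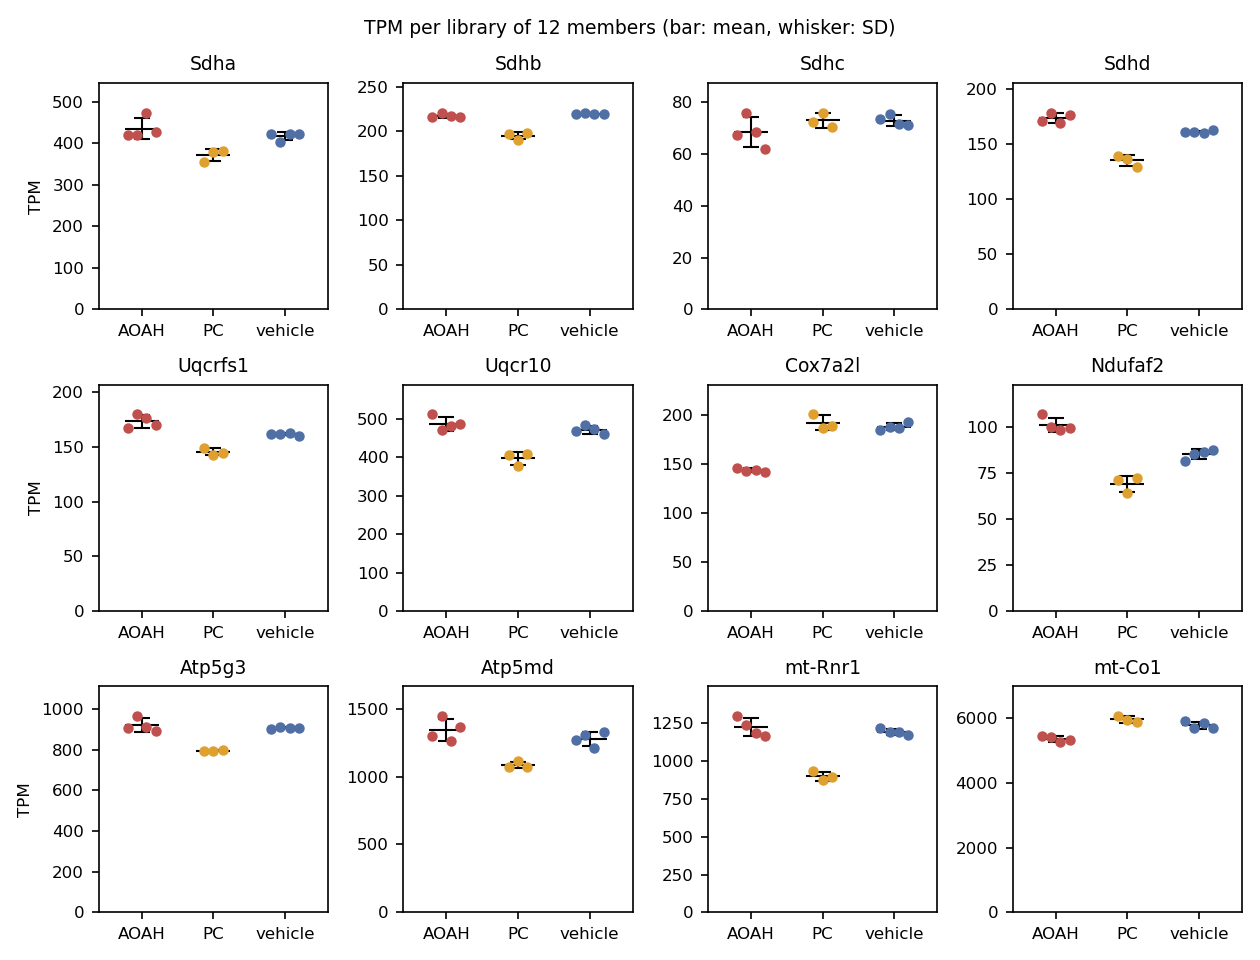
TPM of 12 members in each library, 1 point a library, for AOAH (n = 4), PC (n = 3) and vehicle (n = 4), with the mean as a bar and the SD as a whisker. Sdha, Sdhb, Sdhd, Uqcrfs1, Uqcr10, Ndufaf2, Atp5g3, Atp5md and mt-Rnr1 are lowest in PC, while Cox7a2l and mt-Co1 are lowest in AOAH.

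Complex III, the cytochrome bc1 complex, had 2 of 8 nuclear genes higher and 0 lower in AOAH, and 0 higher and 2 lower in PC, each against vehicle. That is 25% called in each, near the 25.2% and 19.5% of all genes. Uqcrfs1, the Rieske iron-sulphur protein, had 167, 180.0, 176 and 170.2 TPM in AOAH, 149, 143 and 144 TPM in PC and 162, 162, 163 and 160.3 TPM in vehicle. PC was lower than vehicle by -0.16 ± 0.03 (adjusted p = 0.00860), and AOAH was higher by 0.10 ± 0.03 (adjusted p = 0.0279). The AOAH call was lost with the block (adjusted p = 0.0580), without filter (adjusted p = 0.0564), under quantile normalization (adjusted p = 0.188), and without any 1 of AOAH 2, AOAH 3 or the 4 vehicle libraries, with adjusted p between 0.0505 and 0.0684. Uqcr10, a small subunit, had 513, 471, 481 and 486 TPM in AOAH, 405, 378 and 410.0 TPM in PC and 469, 484, 473 and 461 TPM in vehicle. PC lay below both other groups, with a change of -0.26 ± 0.03 against vehicle (adjusted p = 0.00380). Uqcrb, which lies near the quinone site, had 592, 580.3, 574 and 559 TPM in AOAH and 541, 529, 545 and 539.7 TPM in vehicle, a change of 0.10 ± 0.02 (adjusted p = 0.0119), which under quantile normalization was 0.02 (adjusted p = 0.657). The core proteins Uqcrc1 and Uqcrc2 were not called against vehicle in either group.

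Complex IV, cytochrome c oxidase, held the member of lowest p in AOAH against vehicle. This was Cox7a2l, a relative of the Cox7a subunits that has been described as joining complexes III and IV into supercomplexes. Whether it does so in these C57BL/6 cells was not tested. Cox7a2l had 146, 143, 144 and 142 TPM in AOAH, 201, 187 and 189 TPM in PC and 185, 188, 187 and 193 TPM in vehicle. The AOAH libraries lay far below both other groups, which overlapped each other. Its change was -0.39 ± 0.02 in AOAH against vehicle (adjusted p = 1.91e-05), -0.42 ± 0.03 in AOAH against PC (adjusted p = 2.61e-05) and 0.04 ± 0.03 in PC against vehicle (adjusted p = 0.432). Both falls were called in every alternative setting tried and without each library. Of the 16 tested nuclear genes of complex IV, Cox7a2l and Cox6a2 were called in AOAH against vehicle, both lower. That is 12.5% called, against 25.2% of all genes. PC against vehicle had 1 higher and 2 lower, 18.8% against 19.5% of all genes. In PC against vehicle, Cox5a was at 364, 362 and 349 against 381, 395 and 390.0 TPM (adjusted p = 0.0243, and 0.0543 with the block or between 0.0545 and 0.0776 without PC 2, PC 3, vehicle 2 or vehicle 3) and Cox8a at 559, 556 and 535 against 628, 592 and 582 TPM (adjusted p = 0.0452), both lower in PC. The Cox8a call was lost without any 1 of the 6 libraries. Cox6a2, the heart and muscle form of a structural subunit, was called in both comparisons with vehicle at levels of 0.820, 0.470, 1.60 and 1.28 TPM in AOAH, 3.31, 3.00 and 3.19 TPM in PC and 1.87, 2.18, 2.50 and 2.01 TPM in vehicle. It was lower in AOAH by -0.65 ± 0.18 (adjusted p = 0.0257, and 0.0523 to 0.0627 without AOAH 1, vehicle 2, vehicle 3 or vehicle 4) and higher in PC by 0.39 ± 0.11 (adjusted p = 0.0467), and the PC call was lost without any 1 of the 6 libraries and with the block (adjusted p = 0.102).

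Where complex IV has tissue isoforms, the ubiquitous form dominated in every library. Cox4i1 supplied all of the Cox4 TPM except in vehicle 1, where Cox4i2, a lung form, took 0.0182%. Cox6a1 supplied 99.7% to 99.9% of the Cox6a TPM and Cox6b1 98.4% to 99.2% of the Cox6b TPM, the rest being the testis form Cox6b2. Cox7a2 supplied 98.6% to 100.0% of the TPM shared with the muscle form Cox7a1. Ndufa4, once assigned to complex I and now to complex IV, had 410.4 to 477 TPM, while its hypoxia-induced relative Ndufa4l2 reached at most 0.350 TPM. Cox6c2 was listed at 0 TPM except in AOAH 4 (8.42 TPM) and vehicle 3 (9.03 TPM). Close copies such as Cox6c and Cox6c2 can share reads, and the sources do not say how the authors' counting divided these, so both levels are uncertain. The same holds for the complex I copies Ndufb4, Ndufb4b and Ndufb4c, where Ndufb4c took 58.6% to 73.8% of their summed TPM in the 11 libraries, and for Ndufs6, which took 99.6% to 100.0% of the TPM shared with Ndufs6b. None of Ndufb4, Ndufb4b, Ndufb4c and Ndufs6 was called in any of the 3 comparisons.

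Complex V had 0 of 17 nuclear genes higher and 6 lower in PC, and 1 higher and 0 lower in AOAH, each against vehicle. These are 35.3% and 5.88% called, against 19.5% and 25.2% of all genes. Atp5g3, which encodes the c subunit of the proton-driven rotor, had 908, 968, 914 and 891 TPM in AOAH, 795, 795 and 798 TPM in PC and 904, 910.0, 909 and 909 TPM in vehicle. The gap between PC and vehicle was wide relative to the spread of both, a change of -0.19 ± 0.02 (adjusted p = 0.00122). Atp5a1, the alpha subunit of the catalytic head, had 607, 603 and 615 TPM in PC against 672, 674 and 689 TPM in vehicle 1 to 3 (-0.16 ± 0.02, adjusted p = 0.00363), and Atp5md, a small membrane subunit, had 1072, 1113 and 1068 against 1267, 1308 and 1213 TPM (-0.22 ± 0.03, adjusted p = 0.00501). These 3 calls were kept in every alternative setting tried. Atp5c1, the gamma subunit of the central stalk, fell in PC by 0.14 on the log2 scale (adjusted p = 0.0131, and 0.0507 without vehicle 3). Atp5pb and Atp5o, subunits of the peripheral stalk, fell by 0.11 each (adjusted p = 0.0263 and 0.0458), and both calls were lost with the block (adjusted p = 0.0693 and 0.104), that of Atp5o without any 1 of the 6 libraries and that of Atp5pb without any 1 but vehicle 3. Atp5b, the other main subunit of the head, had 1959, 2013 and 2054 TPM in PC and 2137, 2017 and 2280.2 TPM in vehicle 1 to 3, with overlapping groups and no call (-0.09 ± 0.04, adjusted p = 0.193).

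The c subunit is made from 3 genes with the same mature protein, and their shares are given here with no test. Atp5g3 gave 41.6%, 41.4% and 40.7% of their summed TPM in PC, 44.0% to 46.1% in AOAH and 43.7% to 45% in vehicle. Atp5g1 supplied 22.3% to 22.9% (PC), 20.8% to 22.2% (AOAH) and 20.3% to 21.0% (vehicle). Atp5g2 supplied 35.5% to 36.3% (PC), 33.1% to 34.2% (AOAH) and 34.0% to 35.6% (vehicle), so the PC and vehicle libraries overlapped for this gene. Atp5g1 had 456, 437, 451 and 441 TPM in AOAH and 421, 420.0, 414 and 429 TPM in vehicle, a change of 0.08 ± 0.02 (adjusted p = 0.0212). It was not called in the block fit (adjusted p = 0.0590), under quantile normalization (adjusted p = 0.157), or with AOAH 1, AOAH 3, vehicle 2 or vehicle 3 left out (adjusted p between 0.0508 and 0.0549).

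The 15 mitochondrial rows come from long transcripts of both strands that are cut at the transfer RNAs lying between the genes. In GENCODE vM21 (GRCm38) the order on the strand that carries all but mt-Nd6 is mt-Rnr1, mt-Rnr2, mt-Nd1, mt-Nd2, mt-Co1, mt-Co2, mt-Atp8, mt-Atp6, mt-Co3, mt-Nd3, mt-Nd4l, mt-Nd4, mt-Nd5 and mt-Cytb. The overlap of mt-Atp8 with mt-Atp6 is printed because reads inside it fit both genes. It takes 43 bases, 21.1% of the 204 bases of mt-Atp8, at chrM:7927-7969 (GRCm38, plus strand), with the mt-Atp6 start codon first:
mt-Atp8 and mt-Atp6: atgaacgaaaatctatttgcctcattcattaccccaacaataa
A shorter overlap of 7 bases joins mt-Nd4l to mt-Nd4. The spread among libraries of a group, as the mean coefficient of variation over the 3 groups, was 20.5% for mt-Nd4l, 19.8% for mt-Nd3, 12.1% for mt-Atp6 and 8.93% for mt-Co3, and between 1.71% and 6.36% for the other 11 mitochondrial rows. It had a median of 3.14% over the 72 nuclear members with a mean of at least 100 TPM.

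In PC against vehicle 1 to 3, 1 of the 2 ribosomal RNAs and 2 of the 13 messenger RNAs were called lower and 0 higher. That is 20.0% of the 15 rows, near the 19.5% of all genes. The changes are given here in gene order with no test of position. The 12S ribosomal RNA mt-Rnr1 had 1301, 1241, 1184 and 1169 TPM in AOAH, 934, 874 and 892 TPM in PC and 1219.6, 1189, 1194 and 1170.0 TPM in vehicle. In PC it was well below both other groups, by -0.42 ± 0.03 against vehicle (adjusted p = 6.84e-04), the member of lowest p in this comparison. The 16S ribosomal RNA mt-Rnr2 had 1118, 1167 and 1099 TPM in PC against 1223, 1250.4 and 1174 TPM in vehicle 1 to 3, a change of -0.11 ± 0.03 (adjusted p = 0.0603, and 0.0291 with the block or 0.0496 without PC 2). The complex I subunit genes mt-Nd1 and mt-Nd2 fell by 0.14 (SE 0.02, adjusted p = 0.00476) and 0.12 (SE 0.02, adjusted p = 0.0107) on the log2 scale. The next 5 genes, with no calls, had changes of 0.04 for mt-Co1, 0.12 for mt-Co2, 0.12 for mt-Atp8, 0.21 for mt-Atp6 and 0.22 for mt-Co3, and mt-Nd4 and mt-Nd5 further on had -0.02 each. With the block mt-Atp8 was called higher (adjusted p = 0.0385), as it was without PC 2 (adjusted p = 0.0369), and mt-Co3 was called higher without vehicle 3 (0.33, adjusted p = 0.0177). Under quantile normalization the change of mt-Co1 was -0.01. These RNAs were measured after poly(A) selection, and mitochondrial ribosomal RNAs carry only short A tails, so their TPM need not follow their total amount.

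mt-Nd3, next in the gene order, was uneven within PC. It had 328, 356, 405 and 356 TPM in AOAH, 109, 227 and 247 TPM in PC and 333, 385, 389 and 449 TPM in vehicle. All PC libraries were below all others, and PC 1 was far below PC 2 and PC 3. The change of -1.0 ± 0.33 in PC against vehicle was not called (adjusted p = 0.0926), while without PC 1 it was -0.63 and was called (adjusted p = 0.00897). mt-Nd4l ranged from 677 to 1581 TPM within the vehicle libraries alone, and its change was -0.41 ± 0.30 in PC (adjusted p = 0.404, while without vehicle 2 the change was -0.71 and the adjusted p was 0.0463) and 0.12 ± 0.27 in AOAH against vehicle (adjusted p = 0.782).

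In AOAH against vehicle, 3 mitochondrial messenger RNAs were called lower and 0 higher of 13, 23.1% against 25.2% of all genes, and mt-Atp8 was called higher under quantile normalization (0.12, adjusted p = 0.00120). mt-Co1, the catalytic subunit of complex IV, had 5439.6, 5403, 5245 and 5323 TPM in AOAH, 6066, 5913 and 5875 TPM in PC and 5894, 5691, 5821 and 5674 TPM in vehicle. Every AOAH library was below every other library, with a change of -0.11 ± 0.02 against vehicle (adjusted p = 0.00270) and -0.15 ± 0.02 against PC (adjusted p = 3.27e-04). Under quantile normalization the change against vehicle was -0.03 and was not called (adjusted p = 0.238). mt-Nd4 and mt-Nd6, complex I subunits, had changes of -0.07 ± 0.02 (adjusted p = 0.0300) and -0.11 ± 0.03 (adjusted p = 0.0345). Both calls were lost after TMM rescaling (adjusted p = 0.0708 and 0.0687). That of mt-Nd6 was lost without any 1 of AOAH 2, AOAH 3, AOAH 4 or the 4 vehicle libraries (adjusted p from 0.0529 to 0.0800), and that of mt-Nd4 without AOAH 3, AOAH 4, vehicle 1 or vehicle 3 (adjusted p from 0.0718 to 0.0804) and with the block (adjusted p = 0.0534). mt-Cytb, the mitochondrial subunit of complex III, had a change of -0.07 ± 0.03 (adjusted p = 0.109), which was called with the block (adjusted p = 0.0443) and without AOAH 1 (adjusted p = 0.0357). mt-Co3 had a change of 0.27 ± 0.10 (adjusted p = 0.10) and mt-Nd1 of 0.06 ± 0.02 (adjusted p = 0.0826), and these were called higher without vehicle 4 (0.35, adjusted p = 0.0314) and without AOAH 3 (0.08, adjusted p = 0.0259).

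**Figure D4:**
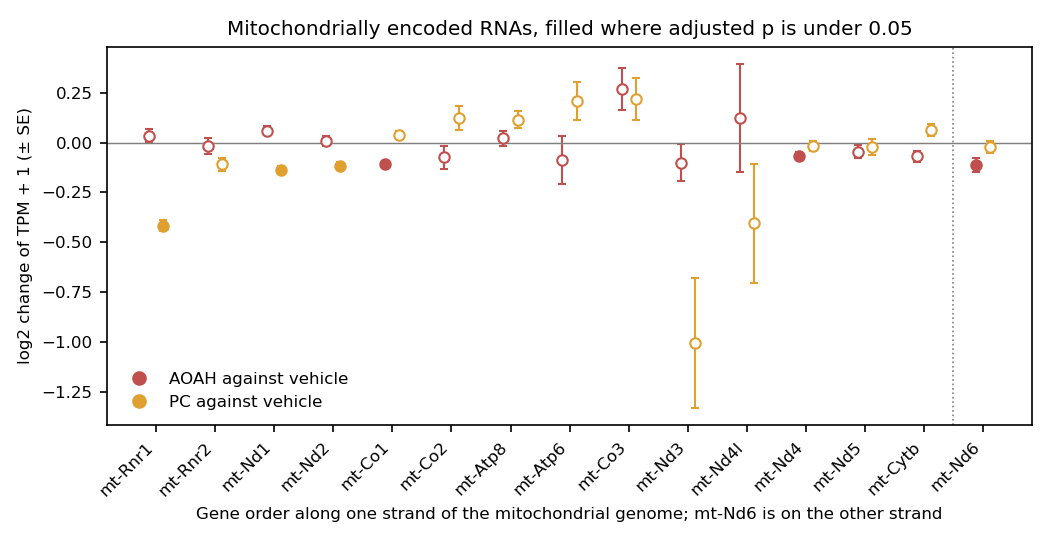
Log2 change of TPM + 1 with its SE for the 15 mitochondrially encoded RNAs, in order along their transcript, in AOAH against vehicle and PC against vehicle. Filled points have an adjusted p under 0.05. In PC the called members mt-Rnr1, mt-Nd1 and mt-Nd2 lie between -0.42 and -0.12 and the wide bars belong to mt-Nd3 and mt-Nd4l, while in AOAH the called members mt-Co1, mt-Nd4 and mt-Nd6 lie between -0.11 and -0.07.

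The 95 nuclear members summed to 26974 ± 144 TPM in AOAH, 25355 ± 104 TPM in PC and 26744 ± 437 TPM in vehicle, and the PC mean was 0.955 times that of vehicle 1 to 3. The 13 mitochondrial messenger RNAs summed to 32429 ± 567, 33039 ± 830.1 and 32656 ± 990.4 TPM in the same groups, with overlapping libraries and a PC ratio of 1.01. The ribosomal RNAs summed to 2438 ± 108, 2028 ± 32.9 and 2421 ± 35.4 TPM, a PC ratio of 0.839. By complex, the PC ratio was 0.977 for nuclear complex I subunits, 0.891 for complex II, 0.950 for nuclear complex III, 0.975 for nuclear complex IV and 0.939 for nuclear complex V. The matching ratios of AOAH over vehicle were 0.990, 1.03, 1.02, 1.01 and 1.01. These sums are given with no test.

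**Figure D5:**
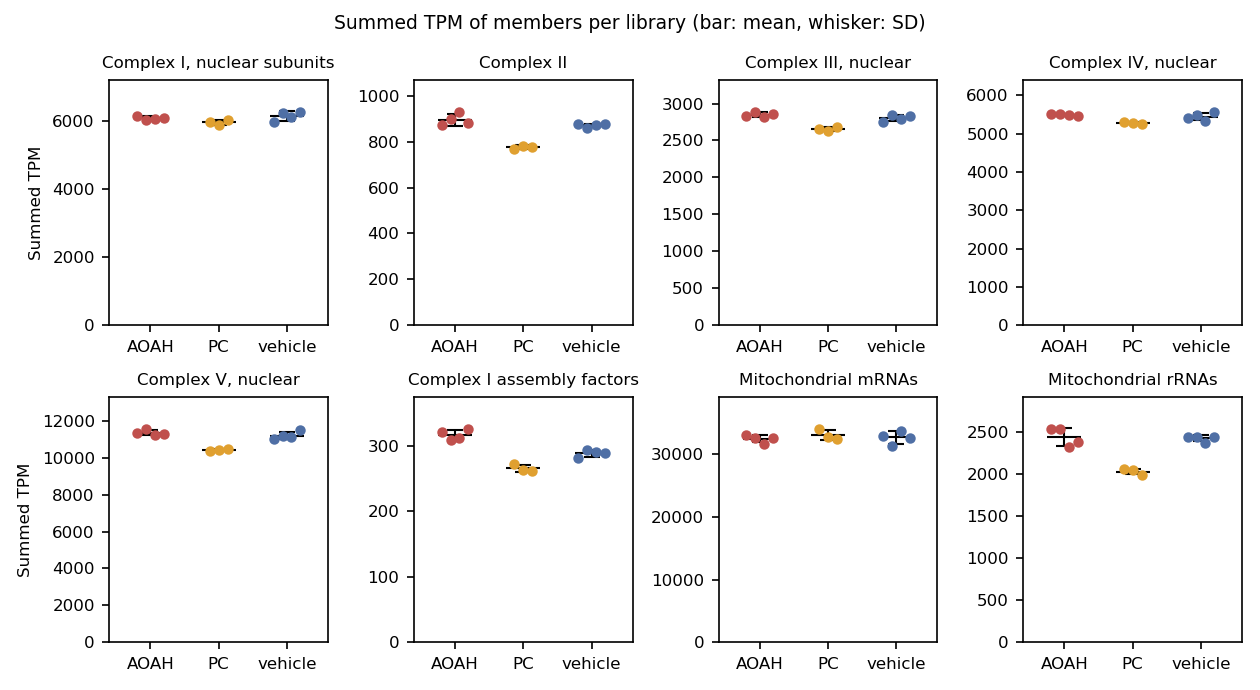
Summed TPM of members per library, 1 point a library, for nuclear genes of each complex, complex I assembly factors, and mitochondrial messenger and ribosomal RNAs, in AOAH (n = 4), PC (n = 3) and vehicle (n = 4), with the mean as a bar and the SD as a whisker. All PC libraries lie below all others for complexes II, III, IV and V, the assembly factors and the ribosomal RNAs, and the groups overlap for mitochondrial messenger RNAs.

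The 4 members called in both comparisons with vehicle were Cox6a2, Ndufaf2, Sdhd and Uqcrfs1, and in each the AOAH and PC changes had opposite signs. How many of all genes were called in both, and with which signs, was not counted, so this cannot be read as particular to the members. Both comparisons used vehicle 1 to 3, so they are not independent, and the values stand side by side above. In all, 48 members were called in at least 1 of the 3 comparisons and 62 in none, the 62 including the 3 members that were not tested. The like share over all genes was not counted.

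Set directly against PC, AOAH had 28 nuclear members higher and 7 lower. That is 38.0% of the 92 tested, against 45.8% of all genes, 24.3% higher and 21.5% lower. Over all members, mitochondrial rows included, 33 were higher and 10 lower, an excess that was nearly gone under quantile normalization (22 higher and 21 lower). Nuclear members were not counted alone under quantile normalization. The members of lowest p were Cox7a2l, described above, then Ndufaf2, mt-Rnr1 and Sdhd. mt-Rnr1 was higher in AOAH by 0.44 ± 0.04 (adjusted p = 8.78e-05). By group, the calls were 4 higher and 4 lower of 39 nuclear complex I subunits, and 3 and 0 of 4 for complex II. They were 5 and 0 of 8 for nuclear complex III, 6 and 2 of 16 for nuclear complex IV, and 7 and 0 of 17 for nuclear complex V. The shares called were 20.5%, 75.0%, 62.5%, 50.0% and 41.2% in that order, against 45.8% of all genes. Atp5b, uncalled against vehicle in either group, had 2317, 2274, 2233 and 2249 TPM in AOAH against 1959, 2013 and 2054 TPM in PC, with no overlap and a change of 0.18 ± 0.02 (adjusted p = 3.76e-04). Atp5md was higher by 0.31 ± 0.05 (adjusted p = 0.00104) and Uqcr10 by 0.29 ± 0.04 (adjusted p = 5.37e-04). Among complex I subunits, Ndufa13 was lower in AOAH, at 59.1, 55.9, 56.0 and 55.0 against 65.0, 63.0 and 67.3 TPM in PC (-0.20 ± 0.04, adjusted p = 0.00352). Ndufa6 was lower by -0.24 ± 0.05 (adjusted p = 0.00857, and 0.0608 with the block). The mitochondrial messenger RNAs were divided, with mt-Nd1, mt-Nd2, mt-Nd3 and mt-Nd4l higher and mt-Co1, mt-Co2 and mt-Cytb lower in AOAH. That is 53.8% of the 13 called, against 45.8% of all genes. The calls of mt-Nd4l and mt-Co2 were lost with the block (adjusted p = 0.0717 and 0.153). That of mt-Nd3 was lost without any 1 of AOAH 2, AOAH 3 or AOAH 4 (adjusted p from 0.0553 to 0.0651), that of mt-Nd4l without PC 2 (adjusted p = 0.0570), and that of mt-Co2 without AOAH 2, AOAH 4, PC 1 or PC 2 (adjusted p from 0.0876 to 0.142). With the block, mt-Rnr2 was called higher (adjusted p = 0.0401, and 0.0148 without AOAH 3) and mt-Atp8 lower (adjusted p = 0.0403, and 0.0473 without AOAH 4). mt-Nd6 was called lower without AOAH 1 (-0.12, adjusted p = 0.0391).

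Calls that held in every alternative setting tried, the block and each left-out library included, numbered 2 of 8 higher and 1 of 5 lower in AOAH against vehicle: Ndufaf2 and Ndufs1, and Cox7a2l. In PC against vehicle they were 0 of 1 higher and 11 of 18 lower: mt-Rnr1, mt-Nd1, mt-Nd2, Atp5a1, Atp5g3, Atp5md, Sdhb, Sdhd, Uqcr10, Uqcrfs1 and Ndufaf2. In AOAH against PC they were 17 of 33 higher and 6 of 10 lower. Every setting was a limma fit to the same deposited TPM.

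In the authors' deposited table of DESeq2 results, 106 members had a row, and its fold changes, whose direction is not labelled, were read as treated over vehicle. For AOAH, 0 members were higher and 2 lower at an adjusted p under 0.05 in the authors' deposited table, which were Cox7a2l (-0.39, adjusted p = 3.31e-09) and mt-Co1 (-0.11, adjusted p = 0.00273). That was 2.00% of members against 17.1% of all genes with an adjusted p there. For PC, the authors' deposited table had 0 higher and 7 lower, 7.07% of members against 13.4% of all genes: Atp5a1, Atp5g3, mt-Nd1, mt-Nd3, mt-Rnr1, Sdha and Sdhd. Of these 7, 6 were also called from TPM in the same direction, and the other was mt-Nd3 (-0.98, adjusted p = 1.81e-04 in the authors' deposited table). The number of calls thus differed by more than 1.5 times between the authors' deposited table and the TPM fit. These differ in input, filter, genes adjusted over and tool together. No member called in both went opposite ways. Of the calls above that held in every setting, Ndufaf2 and Ndufs1 were not called there for AOAH (adjusted p = 0.121 and 0.0593). For PC, mt-Nd2, Sdhb, Uqcrfs1, Uqcr10 and Ndufaf2 were not called there (adjusted p from 0.0829 to 0.251), and Atp5md had no matched row.

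Genes that serve the respiratory chain without belonging to it were read from 8 lists, each counted against the background shares given above. Against vehicle these were 25.2% of all genes called in AOAH and 19.5% in PC. Protein import, which brings nuclear-encoded subunits into the organelle, had 15 of 35 tested genes higher and 0 lower in AOAH against vehicle (11 higher with the block), with a median of 0.098 against 0.010 for all genes, and 0 higher and 5 lower in PC against vehicle (2 lower with the block, and 1 without filter). The shares called were 42.9% and 14.3%. Hspd1, the matrix chaperonin, averaged 1121 ± 18.2 TPM in AOAH and 957 ± 31.2 TPM in vehicle (SD, n = 4 each), a change of 0.23 ± 0.03 (adjusted p = 3.53e-04). Timm23, a channel subunit of the inner membrane translocase, averaged 443 ± 5.06 and 394 ± 8.43 TPM in the same groups, a change of 0.17 ± 0.02 (adjusted p = 6.63e-04). In PC, Hspd1 was lower than in vehicle 1 to 3 at 877 ± 11.6 against 969 ± 24.5 TPM, a change of -0.14 ± 0.02 (adjusted p = 0.00923).

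Carriers of adenine nucleotides and phosphate, which exchange ATP, ADP and phosphate across the mitochondrial membranes, had 6 of 14 higher and 1 lower in AOAH, and 0 higher and 8 lower in PC, each against vehicle, with 50.0% and 57.1% called. With the block the counts were 5 and 0, and 0 and 5, and without filter 4 were lower in PC. Slc25a5, the main ADP/ATP carrier in these libraries, averaged 1333 ± 9.03 TPM in AOAH and 1205 ± 10.8 TPM in vehicle, a change of 0.15 ± 0.01 (adjusted p = 2.29e-04). The outer membrane channels Vdac1 and Vdac2 were higher in AOAH by 0.14 ± 0.03 and 0.10 ± 0.02 (adjusted p = 0.00404 and 0.00626) and lower in PC by -0.24 ± 0.04 and -0.19 ± 0.02 (adjusted p = 0.00508 and 0.00288). Cytochrome c and coenzyme Q synthesis had 6 of 16 higher and 0 lower in AOAH, and 0 higher and 1 lower in PC, with 37.5% and 6.25% called (3 higher in AOAH and 0 lower in PC without filter). Cycs, cytochrome c itself, averaged 166 ± 4.05 TPM in AOAH and 147 ± 5.02 TPM in vehicle, a change of 0.18 ± 0.03 (adjusted p = 0.00369).

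The mitochondrial ribosome, which translates the 13 mitochondrial messenger RNAs, had 14 of 82 genes higher and 1 lower in AOAH (9 and 1 with the block, and 6 higher under quantile normalization) and 0 higher and 13 lower in PC (5 lower without vehicle 1), each against vehicle, and 46 higher and 2 lower in AOAH against PC. Against vehicle 18.3% and 15.9% were called, below the 25.2% and 19.5% of all genes. In AOAH against PC 58.5% were called, with 45.8% of all genes. Mrpl12, a large subunit protein, averaged 204 ± 4.78 TPM in AOAH and 189.7 ± 2.01 TPM in vehicle (0.10 ± 0.02, adjusted p = 0.0119), and 170.1 ± 1.08 TPM in PC against 189 ± 0.787 TPM in vehicle 1 to 3 (-0.15 ± 0.02, adjusted p = 0.00614). Mitochondrial RNA handling had 6 of 33 higher and 0 lower in AOAH (4 higher with the block, and 11 after TMM rescaling), and 1 higher and 5 lower in PC (0 and 2 with the block, and 1 lower without PC 2). The share called was 18.2% in each, also below that of all genes. Lrpprc, which stabilizes mitochondrial messenger RNAs, was lower in PC at 50.9 ± 1.33 against 61.7 ± 3.32 TPM in vehicle 1 to 3, a change of -0.27 ± 0.05 (adjusted p = 0.0105). Pnpt1, a subunit of the mitochondrial RNA-degrading complex, was higher in AOAH at 41.6 ± 1.54 against 34.9 ± 1.69 TPM in vehicle (0.25 ± 0.04, adjusted p = 0.00428).

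Mitochondrial transcription and replication had 2 of 24 higher and 2 lower in AOAH (1 and 2 with the block), and 1 higher and 4 lower in PC (0 and 2 with the block). The shares called were 16.7% and 20.8%, against 25.2% and 19.5% of all genes. Dna2, a nuclease and helicase of the nucleus and mitochondria, had opposite changes: 0.32 ± 0.06 in AOAH (20.8 ± 1.70 against 16.5 ± 0.534 TPM, adjusted p = 0.00567) and -0.61 ± 0.06 in PC (10.5 ± 0.577 against 16.5 ± 0.641 TPM in vehicle 1 to 3, adjusted p = 0.00174). Tk2 and Dguok, the mitochondrial kinases that supply deoxynucleotides for replication, were lower in AOAH by -0.51 ± 0.10 and -0.41 ± 0.08 (adjusted p = 0.00624 and 0.00756). Assembly factors outside the rule had 3 of 55 higher and 5 lower in AOAH (2 and 6 with the block), and 1 higher and 8 lower in PC (0 and 3 with the block), with 14.5% and 16.4% called. Tmem70, which helps to build the c ring of the ATP synthase, was higher in AOAH by 0.23 ± 0.04 (adjusted p = 0.00220). Uqcc3 and Cox20 of the same list were lower in AOAH by -0.31 ± 0.05 and -0.23 ± 0.05 (adjusted p = 0.00278 and 0.00687). Cmc2, a complex IV assembly factor, was lower in PC by -0.81 ± 0.16 (adjusted p = 0.0145). Regulators of mitochondrial biogenesis had 1 of 19 higher and 1 lower in AOAH, and 1 higher and 2 lower in PC, with 10.5% and 15.8% called (1 and 0 in AOAH and 1 and 0 in PC with the block). Gabpb1, a GABP subunit, was higher in AOAH by 0.13 ± 0.04 (adjusted p = 0.0303), and Nfe2l2 was lower by -0.15 ± 0.05 (adjusted p = 0.0491). In PC, Nfe2l1, a different gene from the NRF1 of the promoter search, was higher by 0.28 ± 0.06 (adjusted p = 0.0245). Ppargc1b, a coactivator, was lower in PC by -0.31 ± 0.09 (adjusted p = 0.0473) at 3.73 ± 0.216 against 4.88 ± 0.352 TPM in vehicle 1 to 3.

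Several members start close to another gene on the opposite strand, and the calls of such neighbours are set beside those of the members. Sdhd starts 52 bases from Timm8b, an import chaperone, which had a change of -0.04 ± 0.05 in PC against vehicle (adjusted p = 0.608), against -0.24 ± 0.03 for Sdhd. Ndufaf2 starts 113 bases from the repair gene Ercc8, which had a change of 0.25 ± 0.10 in AOAH (adjusted p = 0.103) and 0.05 ± 0.09 in PC (adjusted p = 0.758), against 0.24 ± 0.04 and -0.29 ± 0.05 for Ndufaf2. Atp5pb and Wdr77, 235 bases apart, were both lower in PC, with a change of -0.17 ± 0.03 for Wdr77 (adjusted p = 0.0129), as were Ndufb1 and Cpsf2, 236 bases apart, with -0.22 ± 0.05 for Cpsf2 (adjusted p = 0.0224). The sources do not say whether the counting used strand. The difference between neighbours was not tested.

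Markers of the labelled cell type were present. The summed TPM of Cd8a, Cd8b1, Cd3d, Cd3e and Cd3g lay at 1171 to 1204 (AOAH), 1519 to 1559 (PC) and 1344 to 1384 (vehicle), lowest in AOAH and highest in PC, while the CD4 T cell list of Cd4, Foxp3 and Cd40lg summed to 2.11 to 3.38, 2.93 to 4.33 and 2.22 to 2.80 TPM. The 5 B cell markers summed to 7.08 to 9.30 TPM (AOAH), 6.20 to 7.64 TPM (PC) and 7.56 to 9.77 TPM (vehicle), and the sums of the lists for natural killer cells, monocytes, neutrophils, dendritic cells, red cells and platelets stayed at or below 2.94 TPM in every library. Their part in the results was not tested. Of 4 neutrophil markers only 1, Mpo, was among the rows, and of 5 red cell markers 3 were, so these 2 sums say little. Within groups, libraries correlated across genes at 0.992 to 0.994, and no library stood apart.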

How the data were processed

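RNA was measured in 4 AOAH, 3 PC and 4 vehicle libraries. Per the labels' protocols, poly(A)-selected RNA was made into libraries with unique molecular identifiers, with ERCC RNA added. The authors deposited 1 table of RSEM values as log2 of TPM + 1. The submitters' processing notes name genome build mm39, RSEM and DESeq2 for the authors' processing, without versions. Back-transformed TPM summed to 998406 to 998655 per library. The sources do not give the aligner, the annotation or the use of the identifiers. TPM of genes near the length of a fragment depends on the length model. Of the authors' DESeq2 output, the columns deposited are the base mean (a signal averaged over libraries), the log2 fold change with its standard error, the Wald score, and the p-value with its adjusted form. A deposited repertoire table was not used.

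Tests used limma 3.58.1 (R 4.3.3; mean-variance trend, robust, two-sided) on log2(TPM + 1), pseudocount 1, for all genes whose mean over the libraries compared reached 1 TPM, and were checked on simulated data. Figures used matplotlib 3.10.9. PC was set against vehicle 1 to 3, because vehicle 4 is not labelled as part of the PC table. The labels give each library a batch, from 1 to 4, with no PC library in batch 4, so a batch block was an alternative. Deviations from group means correlated at -0.00332 on average in 10 same-batch pairs (-0.0794 to 0.118), against 0.00114 in 30 others. Also tried were a pseudocount of 0.1 or 5, no filter or 5 TPM, TMM rescaling, quantile normalization, nuclear genes alone, 1 fit over all 11 libraries, vehicle 4 in the PC comparison, and each library left out.

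Members and lists were chosen with earlier results of these data known. Named were the mitochondrial and complex II genes, the 10 called members of lowest p and 5 of largest change per direction (mean of at least 5 TPM) per comparison, the highest member of each class, isoform genes, and up to 4 called genes per other list. Other members named, and the neighbouring genes, were chosen after their values were seen.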

Additional observations from a re-analysis of the deposited data

Results flagged for a closer look

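The highest or lowest library of each group of 4 was set against the others by Dixon's 95% criterion. This was done for sums and for only a part of the members, and 12 of 144 groups passed, where chance flags about 1 in 20. The flags below are therefore not a full list for the members. Ndufaf6, at 38.0 TPM in AOAH 4 and 27.2 to 28.7 TPM in the other AOAH libraries, was not among them. mt-Cytb was at 2991 TPM in AOAH 1, above the other 3 AOAH libraries, and the complex III mitochondrial sum, which is this gene alone, passed for the same reason at 2991 TPM. Sdha was high in AOAH 3 at 474 TPM and low in vehicle 2 at 403 TPM. Ndufaf2 was highest in AOAH 1 at 107 TPM, and its AOAH call did not depend on that library. Atp5g3 was lowest in vehicle 1 at 904 TPM, within a vehicle range that ended at 910.0 TPM. Ndufa6 was low in vehicle 3 at 125 TPM, Uqcrq was low in vehicle 1 at 522 TPM, and the ribosomal RNA sum was low in vehicle 3 at 2368 TPM. Of the rows near 0 TPM, Ndufs6b was at 1.07 TPM in AOAH 1, and Cox6c2 was at 8.42 TPM in AOAH 4 and 9.03 TPM in vehicle 3, each with the rest of its group at 0.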

How the results depend on the processing

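Members called higher in AOAH against vehicle numbered 8, and 4 under quantile normalization or with batch as a replicate block, and members called lower numbered 5, and 2 without filter, 3 after TMM rescaling and 11 under quantile normalization. In PC against vehicle 18 were lower and 1 was higher; the block fit kept 14 of the 18 and lost the 1, and others took their place. The higher count was 0 without filter, at 5 TPM or in 1 fit over all libraries, and 2 under quantile normalization. In AOAH against PC 33 were higher and 10 lower, and under quantile normalization 22 and 21. Leaving out 1 library gave 5 to 7 higher and 3 to 5 lower in AOAH against vehicle, 0 to 2 and 13 to 17 in PC against vehicle, and 28 to 34 and 8 to 11 in AOAH against PC. The cause of these moves was not tested. Under quantile normalization the members' median was -0.035 in place of -0.001 in AOAH against vehicle, and 0.020 in place of 0.083 in AOAH against PC. With nuclear genes rescaled alone, 14 nuclear members in place of 15 were lower in PC against vehicle, and the other counts of nuclear members were equal. Reversals were all in uncalled genes. In AOAH against vehicle, leaving out 1 library gave a range of -0.02 to 0.05 for mt-Atp8 (lowest without AOAH 4), -0.02 to 0.03 for mt-Nd2 (without AOAH 2), -0.04 to 0.37 for mt-Nd4l (without vehicle 4, and -0.02 without vehicle 2) and -0.05 to 0.02 for mt-Rnr2 (highest without AOAH 3). In PC against vehicle they were 0.00 for mt-Nd4 after TMM rescaling, 0.08, 0.01, 0.02 and -0.01 for mt-Nd4, mt-Nd5, mt-Nd6 and mt-Co1 under quantile normalization, -0.05 to 0.00 for mt-Nd6 with 1 library left out (highest without PC 3), and between 0.00 and 0.01 for Sdhc in 6 settings. In AOAH against PC they were 0.06 for mt-Atp8 and -0.00 for mt-Rnr2 under quantile normalization. The replicate block fit also ended the calls of Cox7c, Ndufa10, Ndufa2, Ndufb11, Ndufb5, Uqcrc1 and Uqcrc2 in AOAH against PC, and changed no other call of a named member beyond those given with the results. Depth per library is unknown, and counting error was not estimated from TPM. In the authors' deposited table for AOAH, Cox6a2 had a base mean of 10.3 and an SE of 0.79 for its log2 change, against 0.18 here. The SE of Ndufaf2 was 0.11 there and 0.04 here, and that of Atp5b was 0.04 in both.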
